A study of Mus musculus with 32 samples.

Results

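The core genes of non-homologous end joining were followed through 32 RNA-seq libraries of mouse chondrocytes, the cells that build and keep cartilage. The 7 genes were chosen by symbol as the core set of this pathway: Xrcc6, Xrcc5, Prkdc, Dclre1c, Lig4, Xrcc4 and Nhej1, of 41388 genes in the count tables. All 7 had enough reads to be tested among 16136 genes. The study asked which pathways go with the regeneration and the degeneration of cartilage in 2 inbred strains, LG/J and SM/J. Chondrocytes came from femoral heads at postnatal day 21 and were grown for 4 days in medium with 10% serum. Each strain gave 8 libraries of females and 8 of males, which makes 4 groups, and none with a treatment or engineered allele. The labels do not tell if the libraries within a group stem from different animals or cultures, so a p-value here speaks only of library-to-library spread, part or all of which may be technical.

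Non-homologous end joining repairs DNA double-strand breaks by ligating the broken ends directly, without a homologous template, and works in dividing and in resting cells. The Ku heterodimer (Ku70 and Ku80) slides onto a broken end and recruits the kinase DNA-PKcs, the nuclease Artemis opens and trims ends that cannot be joined as they are, and a complex of XRCC4, DNA ligase IV and XLF seals them. In developing lymphocytes the same machinery closes the breaks made by the RAG recombinase, and the Prkdc mutation of scid mice removes mature B and T cells.

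Total counts ran from 15840330 to 25571598 per library. The LG/J female and the LG/J male numbered 1 stood apart: their summed chondrocyte marker level was 1595 and 2620 CPM (reads of a gene relative to the library's TMM-scaled total) against 14609 to 38861 in the other 14 LG/J libraries and 8863 to 27561 in SM/J. Their summed fibroblast markers were at 26975 and 27348 CPM, and at most 11162 CPM in the other LG/J libraries. In 6 libraries (LG/J females 4 and 5, SM/J females 3 and 4, SM/J males 2 and 3) transcripts of both sexes were present. The 6 closest pairs of libraries within groups, a fixed number, were summed in a further fit. Their median squared difference over counting noise was 3.94 to 4.88. The next pair, SM/J males 7 and 8, was at 5.91 and was not summed. Results that rest on such libraries are given with and without them. All 9 chondrocyte markers passed the filter on low counts, while summed lymphocyte markers reached 30.2 CPM at most.

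The sequences before the RefSeq starts of the members differ in kind, and 4 stretches are shown because they mark those differences: 2 neighbouring GC boxes for Xrcc6, 1 CCAAT box for its partner Xrcc5, 3 CCAAT boxes for Dclre1c, and the short gap that Lig4 shares with the gene on its other side. They are taken from RefSeq on GRCm38.p6, read 5′ to 3′ on the strand of the gene, and capitals mark exact matches, on either strand, to the GC box, whose letters are GGGCGG, or to the CCAAT box. On the other strand the CCAAT box reads as its reverse complement. Xrcc6 (chr15:82016248-82016276, + strand) begins 121 bases before the RefSeq start, inside the longer span that the count files give for the gene, and its whole window of 250 bases is annotated exon of Xrcc6 or Desi1. Xrcc5 (chr1:72307237-72307271, + strand) begins 184 bases before its start, Dclre1c (chr2:3424047-3424100, + strand) 84 bases, and Lig4 (chr8:9977687-9977706, - strand) 26 bases.
Xrcc6: ggGGGCGGagcttcaagcgagGGGCGGgg
Xrcc5: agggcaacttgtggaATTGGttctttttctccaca
Dclre1c: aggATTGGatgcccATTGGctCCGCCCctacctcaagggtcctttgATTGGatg
Lig4: ttcatgctacggtagcccgt

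Promoter windows of 250 bases were matched by symbol for 6 genes, all but Prkdc. The GC box was found 3 times in the window of Xrcc6, 3 times in that of Xrcc4, 2 times in that of Nhej1 and once in that of Dclre1c, and 32.7% of the 32851 promoters in the table held at least 1. Xrcc5 had no GC box in its window. The CCAAT box was found in the windows of Xrcc5 (1 match) and Dclre1c (3 matches), and in 33.8% of all promoters. The subunits of Ku thus share neither of these motifs in the windows searched. Lig4 has 2 RefSeq starts. The window of the first held 1 match to the NRF1-type motif, present in 0.782% of all promoters, and the window of the second held 2 GC boxes. In the first window 230 of 250 bases are annotated exon of Abhd13 or Lig4. The NRF1-type match, 54 bases before the start, lies within them. In the Xrcc4 window 175 bases are exon of Tmem167, and only the GC box 240 bases before the start lies outside them. The E2F-type motifs TTCCCGCC (1.86% of all promoters) and TTTCGCGC (0.256%) were in no member window, so no match to them overlapped a GC box. These matches describe letters and were not tested for binding.

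The members lie on 6 chromosomes, and all are annotated as protein coding on GRCm38. Xrcc6 (chromosome 15, 81987835 to 82040085) shares 344 exonic bases, 7.69% of its exonic length, with Desi1 on the opposite strand. Xrcc4 (chromosome 13, 89774027 to 90089608) shares 112 exonic bases with Tmem167, and Dclre1c (chromosome 2, 3424131 to 3464130) shares 357 with Suv39h2, both also on the opposite strand. Whether counting used strand is not given in the sources used here, so reads from these shared bases cannot be assigned with certainty. Lig4 (chromosome 8, 9970020 to 9977686) starts 21 bases from the start of Abhd13, and Prkdc (chromosome 16, 15637866 to 15842235) starts 466 bases from the start of Mcm4, a subunit of the replicative helicase. Xrcc5 (chromosome 1, 72307421 to 72394952) and Nhej1 (chromosome 1, 74967139 to 75125200) have no annotated gene overlapping them or starting within 1000 bases. No second transcript matched a member at 90% identity over 300 bases or more, other than Desi1 at its overlap with Xrcc6.

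The Ku genes stood highest of the 7 when levels were compared per kilobase of gene length. Over all 32 libraries, Xrcc5 averaged 22.9 ± 2.75 CPM per kilobase (SD) and Xrcc6 averaged 13.6 ± 2.33. Nhej1, which encodes the ligation scaffold XLF, followed at 10.3 ± 2.11, Xrcc4 at 4.84 ± 0.828 and Lig4 at 3.75 ± 0.492. The kinase gene Prkdc, at 0.686 ± 0.135, and the nuclease gene Dclre1c, at 0.672 ± 0.131 CPM per kilobase, were lowest. Only 1 step of this order separated the ranges of neighbours over libraries: Lig4 lay above Prkdc in every library, and its mean was 5.46 times as high. Xrcc5 exceeded Xrcc6 in all 32 libraries and Nhej1 exceeded Xrcc4 in all 32, although their ranges over libraries overlapped. Xrcc6 exceeded Nhej1 in 28 libraries and Xrcc4 exceeded Lig4 in 27. Prkdc and Dclre1c could not be ordered, since Prkdc was the higher in 18 of 32 libraries. The read counts behind these levels were 761 to 1837 for Xrcc6, 664 to 1517 for Xrcc5, 231 to 480 for Lig4, 250 to 669 for Xrcc4, 86 to 353 for Nhej1, 107 to 295 for Prkdc and 93 to 214 for Dclre1c. The last 3 genes therefore carry more counting error per library.

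**Figure D1:**
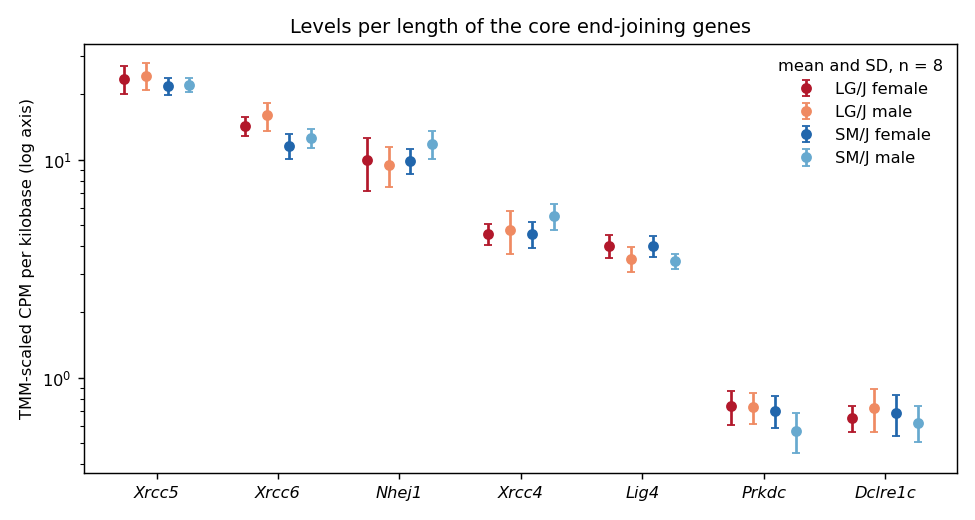
Levels of the 7 core end-joining genes per kilobase of gene length, in TMM-scaled CPM per kilobase on a log axis; points and bars are the mean and SD of the 8 libraries of each strain and sex. In every group the Ku genes Xrcc5 and Xrcc6 are highest, and Prkdc and Dclre1c lie below Lig4, which averages 5.46 times Prkdc over all libraries.

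Xrcc6, which encodes the Ku70 subunit of the break sensor, was higher in LG/J than in SM/J. The lowest, median and highest LG/J levels were 48.0, 68.4 and 80.7 CPM, and those of SM/J were 39.8, 54.6 and 66.5 CPM. The strains overlapped, but 10 of 16 LG/J libraries lay above the highest SM/J library and all 16 SM/J libraries lay below the LG/J median. The 2 lowest LG/J libraries were the ones numbered 1, at 51.4 CPM in the female and 48.0 CPM in the male. The LG/J mean was 67.6 ± 9.20 CPM and the SM/J mean 54.0 ± 6.41 CPM (SD over 16 libraries of each strain), and the fitted log2 fold change was 0.32 ± 0.07 (SE), a 1.25-fold difference, with an adjusted p of 0.00025 (edgeR's quasi-likelihood test, Benjamini-Hochberg adjustment over 16136 genes). It was the only 1 of the 7 members called at an adjusted p under 0.05 in this comparison, in which 16.4% of all genes tested were called higher in LG/J and 13.5% lower. A count of 1 of 7 is close to that background, and it says nothing particular about the group. Of 9 chondrocyte markers, 3 were also called higher in LG/J. Without the LG/J libraries numbered 1 it was 7, where 2772 of 16229 genes were called higher. The part of these markers in the difference was not tested. In bulk libraries, fewer cells of a type and less RNA per cell cannot be told apart.

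Without the LG/J libraries numbered 1 the difference in Xrcc6 was 0.38 ± 0.05 (edgeR's quasi-likelihood test, adjusted p = 1.62e-06), and then 13 of 16 SM/J libraries lay below the lowest of the 14 LG/J libraries, at 59.0 CPM. Xrcc6 was called in each of 32 fits that left out a single library (adjusted p from 8.37e-06 to 0.000703) and under each of 12 other alternatives. Its neighbour Desi1, with which it shares exonic bases, was also called higher in LG/J, with a log2 fold change of 0.22 ± 0.08 (adjusted p = 0.0285). The mean of Desi1 was 13.7 CPM for LG/J libraries and 11.8 CPM for those of SM/J. The part of shared reads in either value was not tested.

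Xrcc5, which encodes Ku80, the other subunit, did not pass the threshold over all libraries. Its lowest, median and highest levels were 41.9, 62.8 and 71.0 CPM in LG/J and 47.2, 56.9 and 64.6 CPM in SM/J. Most libraries of the 2 strains shared one range, although 6 LG/J libraries lay above the highest SM/J library. The LG/J female and male numbered 1 were the lowest of all 32, at 42.8 and 41.9 CPM. Means were 60.8 ± 8.40 and 56.0 ± 4.36 CPM, and the log2 fold change was 0.12 ± 0.06 with an adjusted p of 0.161 (edgeR's quasi-likelihood test) and an interval of 2 SE from -0.01 to 0.24. This call depended on those libraries: without both, Xrcc5 was called higher in LG/J, by 0.18 ± 0.05 (adjusted p = 0.00263), and 32.2% of 16229 genes were called in either direction. Leaving out the female alone gave an adjusted p of 0.0473, and leaving out the male alone gave 0.0328. How far the low chondrocyte marker level of these libraries bears on Ku was not tested.

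**Figure D2:**
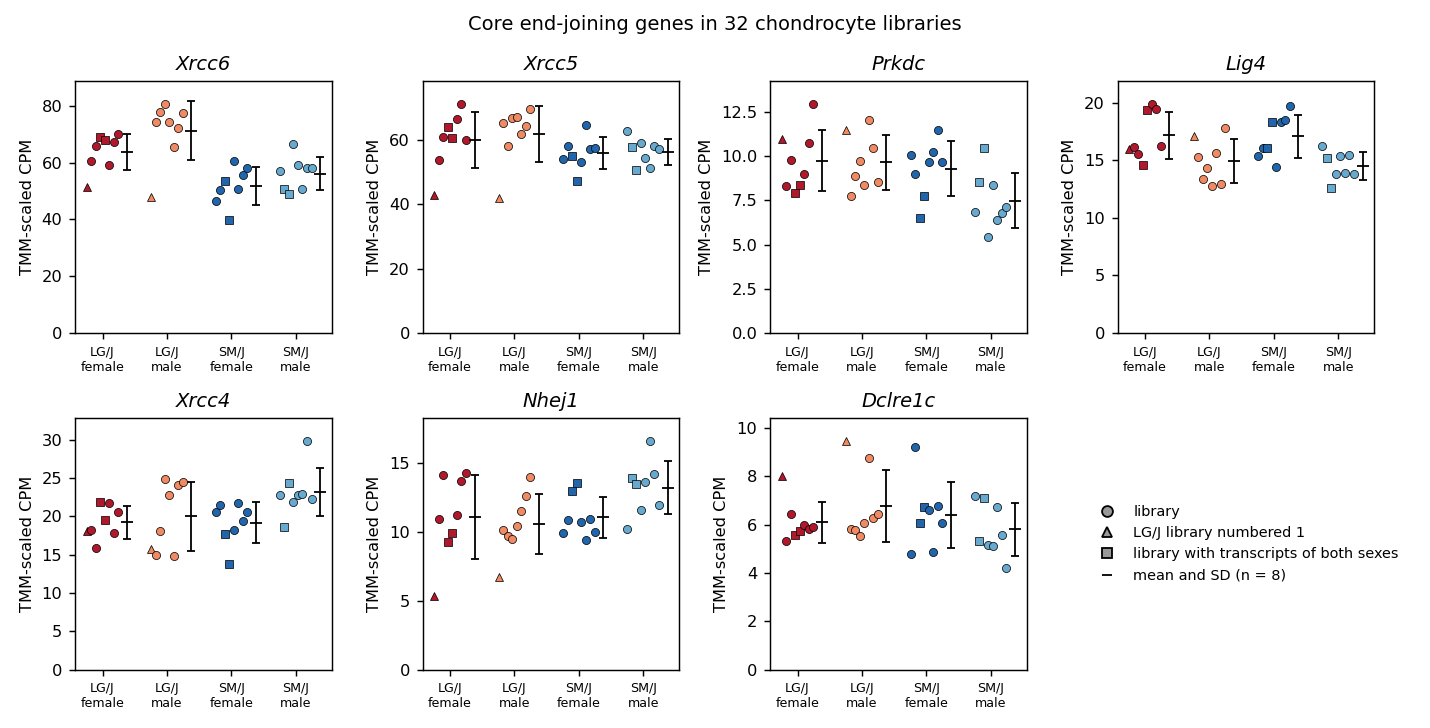
TMM-scaled CPM of each gene in all 32 libraries, 1 panel per gene with its own axis from 0, by strain and sex; bars are the mean and SD of 8 libraries, triangles the LG/J libraries numbered 1 and squares the libraries with transcripts of both sexes. The LG/J triangles are the lowest LG/J points for Xrcc6, Xrcc5 and Nhej1, and for Dclre1c the triangle is the highest point in each LG/J group.

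The level of Xrcc6 relative to Xrcc5 also differed between the strains, a comparison chosen after the values were seen and so given without a test. The ratio of Xrcc6 reads to Xrcc5 reads is taken within a library, where scaling cancels. It had a lowest, median and highest value of 0.891, 1.12 and 1.34 in LG/J and 0.785, 0.977 and 1.14 in SM/J. Its mean was 1.12 ± 0.10 in LG/J and 0.966 ± 0.10 in SM/J (SD, n = 16 each), a difference of 0.21 on the log2 scale. In females the means were 1.08 ± 0.11 and 0.933 ± 0.11, and in males 1.16 ± 0.09 and 0.999 ± 0.08 (SD, n = 8 each). The LG/J libraries numbered 1, which are low for both genes, had ratios of 1.20 and 1.15, within the range of the other LG/J libraries, and the difference was 0.20 without them. It was 0.19 without the 6 libraries of mixed sex transcripts and 0.20 with close pairs summed. This is a ratio of reads of genes of unequal length and not of protein subunits.

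The levels of the 2 Ku genes moved together over libraries. Pearson's r between their log2 levels was 0.70 over 32 libraries and 0.71 over the 30 without the LG/J numbers 1. With the 4 group means removed, r was 0.71 over 32 and 0.45 over 30 libraries, lower without those 2 libraries. These values are descriptions, since libraries share depth and composition effects. The other pairs of members lay between -0.37 and 0.35 over 32 libraries, but some were farther from 0 with the group means removed: Xrcc6 and Dclre1c at -0.50, Xrcc5 and Nhej1 at 0.47, Xrcc5 and Dclre1c at -0.47, and Xrcc5 and Xrcc4 at 0.43. Over 30 libraries with group means removed, Xrcc5 and Xrcc4 were at 0.40, close to the 0.45 of the Ku pair. Xrcc6 and Dclre1c were then at -0.28, Xrcc5 and Nhej1 at -0.15, with the sign reversed, and Xrcc5 and Dclre1c at -0.18.

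**Figure D3:**
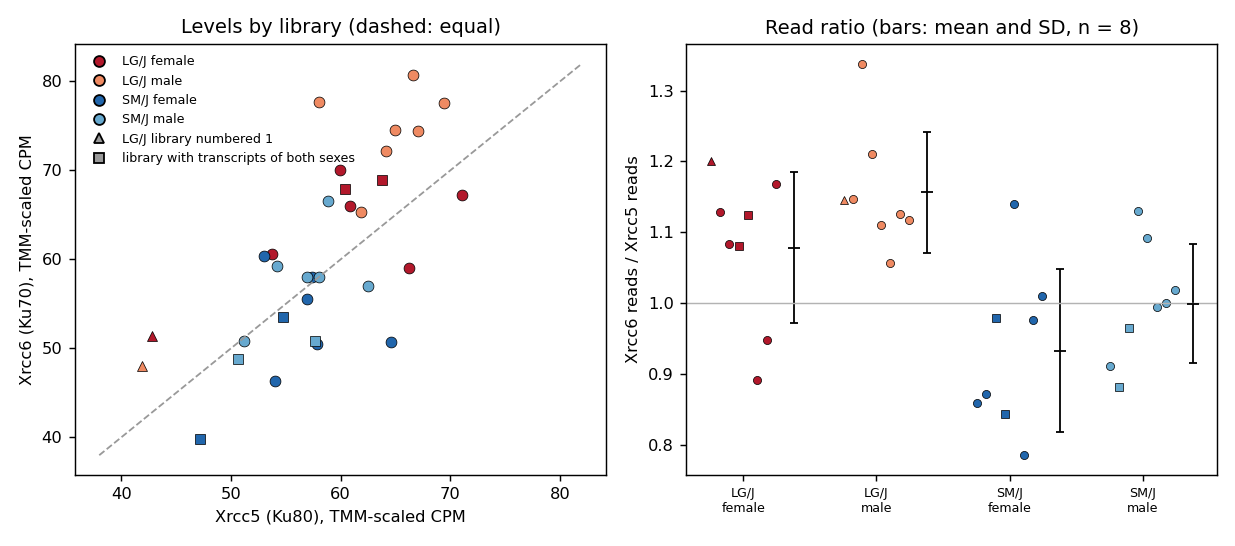
Left, Xrcc6 (Ku70) against Xrcc5 (Ku80) in TMM-scaled CPM for each of 32 libraries, with a dashed line where they are equal; right, the ratio of Xrcc6 to Xrcc5 reads per library by strain and sex, with the mean and SD of 8 libraries (the axis does not start at 0). LG/J points lie mostly above the line, with mean ratios of 1.08 in females and 1.16 in males, and SM/J means are 0.933 and 0.999.

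Prkdc encodes DNA-PKcs, the large kinase that Ku holds at the break. Its lowest, median and highest levels were 7.74, 9.35 and 13.0 CPM in LG/J and 5.44, 8.44 and 11.5 CPM in SM/J. The ranges overlapped over most of their span, with 3 LG/J libraries above every SM/J library and 6 SM/J libraries below every LG/J library. Means were 9.71 ± 1.58 and 8.39 ± 1.77 CPM, and the log2 fold change of 0.22 ± 0.09 was not called (edgeR's quasi-likelihood test, adjusted p = 0.0765; 2 SE from 0.03 to 0.40). Leaving out SM/J male 3 alone gave 0.26 with an adjusted p of 0.0283, and leaving out the 6 libraries with transcripts of both sexes gave 0.26 with 0.0262, where 23.8% of all genes were called in either direction. Without the LG/J libraries numbered 1 it was 0.19 with 0.146.

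Dclre1c, which encodes the nuclease Artemis, ran from 5.31 through a median of 5.93 to 9.47 CPM in LG/J and from 4.21 through 6.07 to 9.19 CPM in SM/J. The LG/J female and male numbered 1, at 8.01 and 9.47 CPM, were the highest of their groups, opposite to their place in Xrcc6, Xrcc5 and Nhej1. The strain difference was 0.08 ± 0.10 (adjusted p = 0.609; 2 SE from -0.12 to 0.27), and without these 2 libraries it was 0.00 with an adjusted p of 0.982.

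The genes of the ligation step showed no called strain difference over both sexes. Lig4, the ligase itself, ran from 12.8 through 15.8 to 19.9 CPM in LG/J and from 12.6 through 15.4 to 19.7 CPM in SM/J, nearly the same ranges. Its log2 fold change was 0.02 ± 0.06 (adjusted p = 0.835), and 2 SE reached from -0.10 to 0.14. Xrcc4, the partner that stabilises the ligase, ran from 14.8 through 18.9 to 24.9 CPM in LG/J and from 13.8 through 21.6 to 29.9 CPM in SM/J, with a log2 fold change of -0.11 ± 0.08 (adjusted p = 0.364). Nhej1 ran from 5.30 through 10.6 to 14.2 CPM in LG/J and from 9.37 through 11.8 to 16.6 CPM in SM/J. The LG/J female and male numbered 1 held its lowest values, 5.30 and 6.69 CPM, while every other LG/J library was at 9.22 CPM or more. The difference in Nhej1 was -0.16 ± 0.11 (adjusted p = 0.288) and without those libraries -0.07 (adjusted p = 0.574). The adjusted p-values are from edgeR's quasi-likelihood test.

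None of the 7 members separated the strains completely. Over 32 libraries, 2.62% of genes tested had no overlap between LG/J and SM/J, and over the 30 libraries without the LG/J numbers 1 the share was 3.11%.

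**Figure D4:**
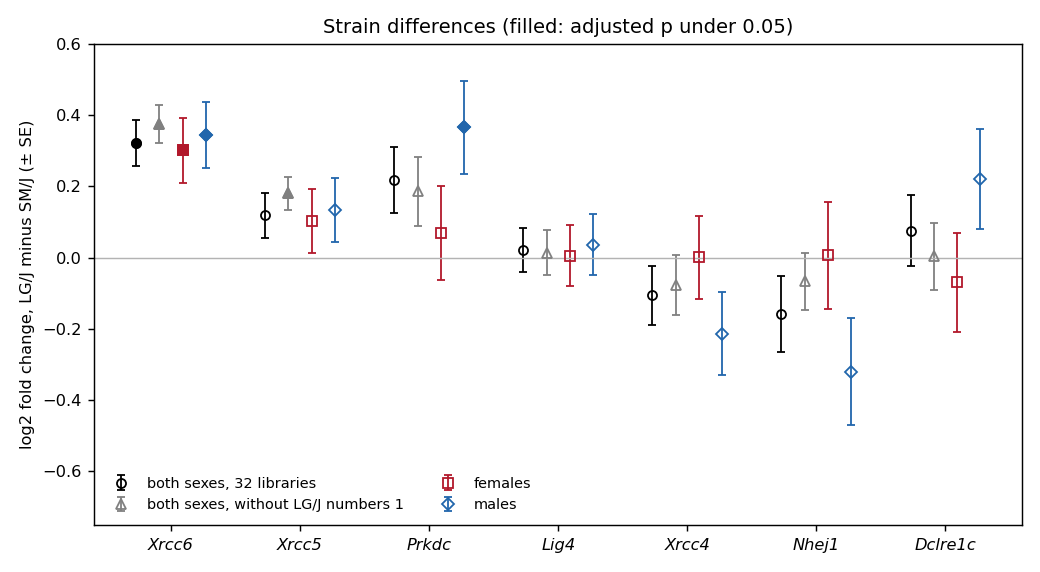
Log2 fold change of LG/J against SM/J for each member with its SE, over both sexes, over both sexes without the LG/J libraries numbered 1, in females and in males; filled symbols have an adjusted p under 0.05. Xrcc6 is filled in all 4 fits, Xrcc5 only without the LG/J numbers 1 and Prkdc only in males.

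Within females, 1 of 7 members was called, against 6.87% of all genes called higher in LG/J and 6.49% lower. That member was Xrcc6, with a mean of 63.9 ± 6.37 CPM for LG/J and 51.9 ± 6.62 CPM for SM/J (SD over 8 libraries), with a log2 fold change of 0.30 ± 0.09 and an adjusted p of 0.0250 (edgeR's quasi-likelihood test). The call was lost in 7 of 32 fits that left out a single library (LG/J females 4, 5, 7 and 8, SM/J females 1, 4 and 6), where the adjusted p was 0.0518 to 0.0821. It was also lost without the libraries of mixed sex transcripts (0.21, adjusted p = 0.246), with close pairs summed (0.24, adjusted p = 0.183), with library size only (0.31, adjusted p = 0.113) and with no filter on low counts (0.29, adjusted p = 0.0908). In this comparison 5 of 9 macrophage markers were called lower in LG/J, with a median log2 fold change of -2.92, and their part was not tested.

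Within males, 2 of 7 members were called, against 12.8% of all genes higher in LG/J and 9.48% lower. Xrcc6 had a mean of 71.3 ± 10.5 CPM for LG/J and 56.2 ± 5.80 CPM for SM/J, with a log2 fold change of 0.34 ± 0.09 (edgeR's quasi-likelihood test, adjusted p = 0.00637), and was called in all 32 fits that left out a library. Prkdc had a lowest, median and highest level of 7.74, 9.31 and 12.1 CPM for LG/J, against 5.44, 6.98 and 10.5 CPM for SM/J. The highest SM/J male for Prkdc was number 3, one of those with transcripts of both sexes. The log2 fold change of Prkdc in males was 0.37 ± 0.13 with an adjusted p of 0.0434, a 1.29-fold difference. This call was lost in 9 of 32 fits without a single library (LG/J males 1, 4, 6 and 7, SM/J males 1, 4, 6, 7 and 8), with an adjusted p of 0.0599 to 0.0988. It was also lost without both LG/J numbers 1 (0.33, adjusted p = 0.0819), with upper-quartile scaling (0.35, adjusted p = 0.0709), with no filter (0.37, adjusted p = 0.0897) and with close pairs summed (0.39, adjusted p = 0.0593). Without the libraries of mixed sex transcripts it was 0.50 (adjusted p = 0.00328), with 19.6% of all genes called in either direction. Although Prkdc was not called without both LG/J numbers 1, 2 of 7 members were called higher in males there. That fit called 2226 of 16229 genes higher in males.

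In females the mean of Prkdc was 9.76 ± 1.72 CPM for LG/J and 9.30 ± 1.55 CPM for SM/J, and its log2 fold change was 0.07 ± 0.13 (adjusted p = 0.808). The strain difference in females minus that in males was -0.30 ± 0.19 for Prkdc (adjusted p = 0.758), so a difference between the sexes in this effect was not shown. In this test of the difference itself, edgeR called 0 of the 7 members, with 0 at an unadjusted p under 0.05, and 0.0062% of all genes, a single gene. No other tool was run on it.

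Between the sexes, over both strains, 1 of 7 members was called, against 2.13% of all genes lower and 1.33% higher in males. It was Lig4, which was lower in males. Its lowest, median and highest levels were 14.6, 16.2 and 19.9 CPM for females of LG/J, and 12.8, 14.8 and 17.8 CPM for its males. In SM/J they were 14.4, 17.2 and 19.7 CPM in females and 12.6, 14.6 and 16.2 CPM in males. The sexes overlapped in both strains. Female and male means were 17.2 ± 2.07 and 14.9 ± 1.89 CPM for LG/J, and 17.1 ± 1.85 and 14.5 ± 1.21 CPM for SM/J (SD over 8 libraries). The log2 difference was -0.22 ± 0.06 (edgeR's quasi-likelihood test, adjusted p = 0.0405), which is 1.16-fold lower in males. In each strain alone the difference in Lig4 was of like size, -0.20 in LG/J and -0.23 in SM/J, and was not called.

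The call for Lig4 rested on a narrow margin. It was lost in 18 of 32 fits without a single library (of LG/J, females 5, 6 and 7, males 3, 4, 5 and 7 and, of SM/J, females 3, 4, 6, 7 and 8, males 3, 4, 5, 6, 7 and 8; adjusted p from 0.0503 to 0.0692), with close pairs summed (-0.21, adjusted p = 0.168) and without the 6 libraries of mixed sex transcripts (-0.21, adjusted p = 0.0967). Those fits moved the estimate little, from -0.24 to -0.20 over the 32. Without the 6 libraries Prkdc was called instead, with a log2 difference of -0.33 (adjusted p = 0.0391) against 2.4% of all genes called in either direction. Within LG/J edgeR called 0 of 7 members for sex (1 at an unadjusted p under 0.05; 0.0496% of all genes called), and within SM/J 0 of 7 (3 at an unadjusted p under 0.05; 5.76% of all genes called).

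The accessory proteins that help the core machinery, among them end-cleaning enzymes and gap-filling polymerases, gave 1 call among 9 genes tested, in a comparison that called 16.4% of all genes higher and 13.5% lower. Tdp1, which removes topoisomerase I remnants from DNA ends, was lower in LG/J (37.4 ± 3.93 CPM, against 41.8 ± 4.55 CPM for SM/J), with a log2 fold change of -0.16 ± 0.05 (edgeR's quasi-likelihood test, adjusted p = 0.0166). The median of the 9 log2 fold changes was 0.02, equal to the 0.02 of all genes. Scaling by library size alone, or no filter on low counts, ended the call for Tdp1 (adjusted p = 0.124 and 0.0651). Dntt, the polymerase that adds bases at V(D)J junctions, was below the filter.

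Genes of alternative end joining, the route through resected ends with short homologies, also gave 1 call, among 10 genes with a median of -0.02, against the same shares of all genes. Lig3, its ligase, was higher in LG/J, at 27.4 ± 4.12 against 23.5 ± 4.97 CPM, with a log2 fold change of 0.24 ± 0.09 (edgeR's quasi-likelihood test, adjusted p = 0.0301). The call was lost in 11 of 32 fits without a single library (of LG/J, females 4, 5, 7 and 8, males 2, 3, 4 and 7 and, of SM/J, female 3, males 5 and 7), without the libraries of mixed sex transcripts (0.25, adjusted p = 0.0561), with no filter on low counts (0.24, adjusted p = 0.0664) and with close pairs summed (0.18, adjusted p = 0.236).

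There were 4 calls among 11 genes of break sensing and of the 53BP1 axis, which shields ends from resection and so favours end joining, with 2 in each direction and a median of 0.12. That is near the 16.4% of all genes called higher and 13.5% called lower. Trp53bp1, which encodes 53BP1 itself, was higher in LG/J: its lowest, median and highest levels were 20.7, 33.9 and 39.6 CPM against 14.1, 25.7 and 33.3 CPM in SM/J. The log2 fold change of Trp53bp1 was 0.51 ± 0.09 (edgeR's quasi-likelihood test, adjusted p = 1.95e-05). Its effector Rif1 was higher too, at 26.8 ± 3.20 against 21.1 ± 3.79 CPM, by 0.36 ± 0.07 (adjusted p = 0.000172). Mad2l2, which encodes REV7 of the shieldin complex, was lower in LG/J, at 41.1 ± 3.35 against 53.5 ± 8.10 CPM, with a log2 fold change of -0.37 ± 0.05 (adjusted p = 1.61e-06). Rnf168, the ubiquitin ligase that marks chromatin for 53BP1 and named after its value was seen, was lower, with a log2 fold change of -0.31 ± 0.09 (adjusted p = 0.0081). Over both sexes Trp53bp1, Rif1 and Mad2l2 were called in all 32 fits without a single library and under all 12 other alternatives. Each still overlapped between strains. Within females 0 of the 11 genes were called higher in LG/J and 2 lower, against 6.87% and 6.49% of all genes. Trp53bp1 and Rif1 were thus not called in females. Within males 2 were called higher and 1 lower, against 12.8% and 9.48% of all genes. Rnf168 was not called without the libraries of mixed sex transcripts (-0.21, adjusted p = 0.125).

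Homologous recombination, the repair route that copies a sister chromatid, gave 3 calls among 12 genes, with a median of -0.15, and this count too is near the 16.4% and 13.5% of all genes. Bard1, the partner of BRCA1, was higher in LG/J, at 3.24 ± 1.24 against 1.79 ± 0.652 CPM, with a log2 fold change of 0.85 ± 0.20 (edgeR's quasi-likelihood test, adjusted p = 0.00137). Rad52, a strand-annealing factor, was lower, with a log2 fold change of -0.30 ± 0.07 (adjusted p = 0.00255), at 14.8 ± 1.78 against 18.2 ± 2.83 CPM. Rad51c, which acts in strand exchange, was lower, with a log2 fold change of -0.34 ± 0.12 (adjusted p = 0.0323). The call for Rad51c was lost without SM/J female 3, SM/J female 5, SM/J male 6 or SM/J male 8 (adjusted p up to 0.0603), without the 6 libraries of mixed sex transcripts (-0.26, adjusted p = 0.182), without these and the LG/J numbers 1 (-0.26, adjusted p = 0.219) and with close pairs summed (-0.29, adjusted p = 0.141). Bard1 and Rad52 were called over both sexes in all 32 fits without a single library and under all 12 other alternatives. Within females 0 of the 12 genes were called, against 6.87% of all genes higher and 6.49% lower. Within males 1 was called higher and 1 lower, against 12.8% and 9.48%.

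Because homologous recombination is tied to replication, 10 proliferation genes were set beside these lists. Their median was -0.31, 2 were called lower in LG/J, against 13.5% of all genes, and 8 were not called. Aurkb, a mitotic kinase, was at 17.3 ± 10.4 against 31.3 ± 14.6 CPM (log2 fold change -0.86 ± 0.29, edgeR's quasi-likelihood test, adjusted p = 0.0253), and Pcna, the replication clamp, was lower, with a log2 fold change of -0.24 ± 0.09 (adjusted p = 0.0395). Pcna lost its call in 12 of 32 fits without a single library (of LG/J, females 1 and 5, males 4, 7 and 8 and, of SM/J, females 2, 3, 4 and 5, males 6, 7 and 8) and in 7 of 12 other alternatives, among them without the LG/J numbers 1 (adjusted p = 0.0561), without the libraries of mixed sex transcripts (adjusted p = 0.101), with close pairs summed (adjusted p = 0.187) and with the replicate block (adjusted p = 0.0522). Aurkb lost it without the libraries of mixed sex transcripts (-0.57, adjusted p = 0.204), without these and the LG/J numbers 1 (-0.61, adjusted p = 0.189) and with close pairs summed (-0.66, adjusted p = 0.163). The part of proliferation in the repair genes was not tested.

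Rag1 and Rag2, the recombinase whose breaks end joining closes in lymphocytes, were near background. Rag1 had 0 to 7 reads per library and Rag2 had 0 to 17, and both fell below the filter on low counts. Summed macrophage markers ran from 32.1 to 1628 CPM in LG/J (median 73.0) and up to 1169 CPM in SM/J (median 312.3). Over both sexes 2 of 9 tested were called lower in LG/J, against 13.5% of all genes. In females 5 of 9 were lower, against 6.49%, and in males 0 of 9, against 9.48%. Without the LG/J numbers 1, 3 were lower over both sexes, where 32.2% of all genes were called in either direction. In that setting 6 were lower in females, where 1231 of 16229 genes were called lower. In males 1 was higher, where 2226 of 16229 genes were called higher. The macrophage marker C1qb had 0 reads in 11 libraries. The part of macrophages in the end-joining genes was not tested.

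**Figure D5:**
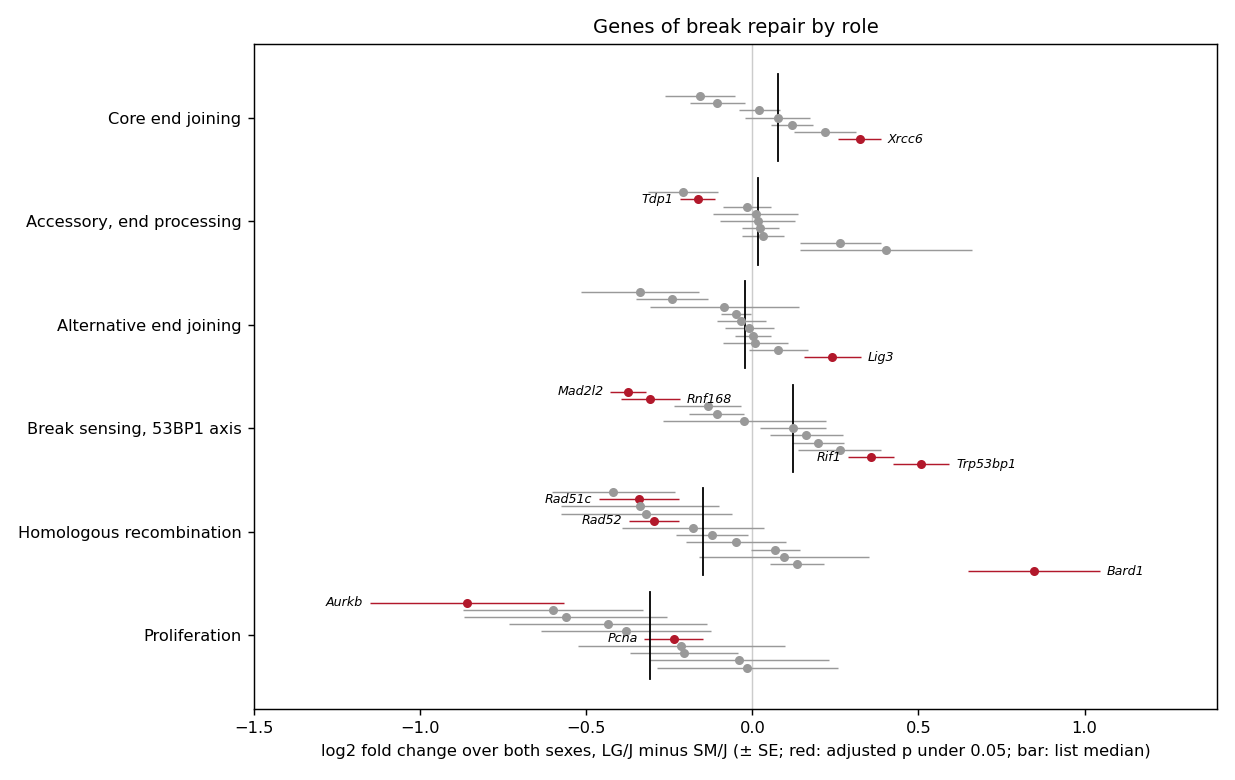
Log2 fold change (± SE) of LG/J against SM/J over both sexes for the genes of 6 lists, 1 point per gene, red where the adjusted p is under 0.05, with a black bar at the median of each list. Called genes lie on both sides of 0 for break sensing, with Trp53bp1 at 0.51 and Mad2l2 at -0.37, and for homologous recombination. They are 2 higher and 2 lower of 11 genes, and 1 higher and 2 lower of 12. Of all genes 16.4% were called higher and 13.5% lower.

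The genes whose level over 32 libraries was most like each member were found by Pearson's r of log2 CPM among 8104 genes of at least moderate level (mean log2 CPM of 3 or more). For Xrcc6 they were Tbc1d31 (r = 0.89), Slc38a3 (r = 0.87) and Pde3b (r = 0.85), and these values were 0.88, 0.86 and 0.87 without the LG/J numbers 1. For Xrcc5 they were Osbpl1a (0.83), Lars (0.82) and Pcdh11x (0.82), which fell to 0.69, 0.67 and 0.70 without those libraries. For Nhej1 they were Vamp5 (0.87), Fau (0.86) and Glo1 (0.86), which fell to 0.70, 0.69 and 0.67. For Xrcc4 they were Dnajc18 (0.79), Chchd5 (0.79) and Selenok (0.78), and for Prkdc Fam126b (0.70), Prr14l (0.69) and Ash1l (0.69). With the group means removed those of Prkdc were at 0.57, 0.55 and 0.51. For Dclre1c they were Unc93b1 (0.67), Stom (0.67) and Ly6e (0.66), which fell to 0.59, 0.51 and 0.53 without the LG/J numbers 1. For Lig4 they were Ptpn23 (0.59), Pcgf3 (0.58) and Eif2s3x (0.54). The last 3 were at 0.36, 0.39 and 0.11 with the group means removed. No member was among the 3 most like another. The libraries share depth, strain, sex and composition, so these values are descriptions.

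Genes that overlap a member or start beside it were read in the same fit. Beside Desi1, they were Mcm4 next to Prkdc (-0.24 ± 0.16, adjusted p = 0.276), Abhd13 next to Lig4 (0.07 ± 0.09, adjusted p = 0.604), Tmem167 (-0.11 ± 0.07, adjusted p = 0.230) and Gm4117 (0.18 ± 0.19, adjusted p = 0.515) at Xrcc4, and Suv39h2 at Dclre1c (0.49 ± 0.28, adjusted p = 0.191). These are log2 fold changes of LG/J against SM/J from edgeR's quasi-likelihood test, and none of them was called. The means of Tmem167 were 290.3 CPM for LG/J and 314.7 CPM for SM/J, against 19.6 and 21.2 CPM for Xrcc4, and the part of shared reads in the level of Xrcc4 was not tested.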

How the data were processed

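RNA-seq read counts per gene were analysed in 32 libraries. The submitters' processing notes name STAR 2.0.4b, featureCounts 1.45 of Subread and the build GRCm38. Neither strand setting nor annotation release of the counting is given in the sources. The deposited files hold raw counts, CPM and RPKM that the authors made from them. The counts were used, with CPM recomputed after TMM scaling. Genes with enough counts (edgeR's filterByExpr by group, 16136 of 41388) were fitted with 4 group means in edgeR 4.0.16 (R 4.3.3) by the robust quasi-likelihood test. P-values were adjusted by Benjamini-Hochberg over all genes kept, with a threshold of 0.05, and SE is the log2 fold change divided by the square root of F. Symbols were found for 40254 of 41388 identifiers.

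The members and lists were chosen with earlier results of these data known. All 7 members are named, with up to 3 genes with the smallest p among those called in each other list, the 3 genes most like each member, and genes that overlap a member or start within 1000 bases. Of 108 list symbols 107 were found, and Shld3 was not matched. Near copies were sought with BLAST 2.17.0. Alternatives included DESeq2 1.42.0, limma 3.58.1 (voom with quality weights), other scalings and filters, and leaving out libraries. Scripts were tested on simulated data. Same-numbered libraries of different groups were not taken as pairs, since the correlations of their deviations did not all pass 0.1 (30 of 48 did, with a range from -0.45 to 0.84) and only 7 of 32 libraries lay closest to one of their own number.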

Additional observations from a re-analysis of the deposited data

Results flagged for a closer look

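Of 28 gene and group combinations, each of 8 libraries, 4 held a library far from the others by Dixon's criterion, which chance alone meets in about 1 in 20. Xrcc6 was at 48.0 CPM in LG/J male 1, where the remaining LG/J males had 65.3 to 80.7 CPM. Xrcc5 was at 41.9 CPM in the same library, against 58.1 to 69.4 CPM. Dclre1c was at 8.01 CPM in LG/J female 1, where the remaining females of that strain had 5.31 to 6.43 CPM. It was at 9.19 CPM in SM/J female 2, where the remaining females had 4.78 to 6.79 CPM.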

How the results depend on the processing

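Over both sexes 1 member was called, where 2652 of 16136 genes were called higher in LG/J and 2174 lower. With limma voom 2 members were called, beside 3126 genes higher and 2963 lower. Also 2 were called without the LG/J libraries numbered 1, beside 2772 and 2452 of 16229 genes. Without the 6 libraries of mixed sex transcripts 2 were called, beside 2196 and 1705 of 16387 genes. Without both of these sets of libraries 3 were called, beside 2373 and 1782 of 16536 genes. Over the fits without a single library 1 to 2 were called. In females 1 member was called (0 to 1 without a single library), where 1109 of 16136 genes were higher and 1047 lower. With library size only 0 members were called, beside 1035 genes higher and 877 lower. Also 0 were called with no filter, beside 1056 and 962 of 35652 genes. Without the 6 libraries 0 were called, beside 788 and 838 of 16387 genes. With close pairs summed 0 were called, beside 776 and 751 of 16328 genes. In males 2 members were called (1 to 2 without a single library), where 2070 of 16136 genes were higher and 1530 lower. With voom 4 were called, but voom also called more of all genes, 3039 higher and 2631 lower. With upper-quartile scaling 1 was called, beside 1919 genes higher and 1736 lower. With no filter 1 was called, beside 1869 and 1238 of 35652 genes. With close pairs summed 1 was called, beside 1464 and 983 of 16328 genes. For sex 1 member was called (0 to 1 without a single library), where 215 of 16136 genes were higher in males and 343 lower. With close pairs summed 0 were called, beside 10 and 21 of 16328 genes. The cause was not tested. Values that changed sign, none of them called, were Nhej1 over both sexes (0.052 without the LG/J numbers 1 and the 6 libraries) and Lig4 (-0.00041 to 0.037 over the fits without a single library, below 0 without SM/J female 5). In females they were Xrcc4 (-0.00275 with DESeq2 size factors, -0.0127 with no filter, -0.00249 with DESeq2, -0.0070 with voom, -0.00373 with the replicate block, -0.13 without the 6 libraries, -0.10 without these and the LG/J numbers 1, -0.065 with close pairs summed), Nhej1 (-0.00149 with no filter, -0.041 with the replicate block), Lig4 (-0.00815 and -0.0124 with no filter and close pairs summed) and Prkdc (-0.00468 with close pairs summed). In males it was Lig4 (-0.0061 without the LG/J numbers 1 and the 6 libraries). Over the fits without a single library, Dclre1c in females ran from -0.13 to 0.023 and Lig4 in males from -0.0045 to 0.068. In females Lig4 (-0.040 to 0.036), Nhej1 (-0.063 to 0.11), Prkdc (-0.010 to 0.11) and Xrcc4 (-0.066 to 0.026) crossed 0 too. With the replicate number as a block Xrcc6 was at 0.32 (edgeR, adjusted p = 0.000112). In males this fit called 3 members, Nhej1 (-0.34, adjusted p = 0.0486) beside Xrcc6 and Prkdc (0.36, adjusted p = 0.0480). It called 2240 of 16136 genes higher and 1910 lower there. Genes with fewest reads, Nhej1, Dclre1c and Prkdc, are the least precise.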

Other observations

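Between the sexes, 4 genes of the other repair lists were called over both strains by edgeR's quasi-likelihood test, and they are named after their values were seen. Of all genes, 1.33% were called higher and 2.13% lower in males. Among 11 genes of break sensing and the 53BP1 axis, 1 was higher and 2 were lower. Alternative end joining had 1 of 10 higher, and 0 of 9 accessory and 0 of 12 homologous recombination genes were called. H2afx, which encodes the histone variant phosphorylated at breaks, was lower in males, with female and male means of 7.65 ± 2.50 and 4.74 ± 1.67 CPM for LG/J and 9.10 ± 4.38 and 4.12 ± 2.63 CPM for SM/J (log2 difference -0.92 ± 0.25, adjusted p = 0.0339). Trp53bp1 was lower in males too, by -0.36 ± 0.09 on the log2 scale (adjusted p = 0.0173). Its female and male means were 34.2 ± 2.54 and 31.5 ± 5.05 CPM for LG/J, and 28.4 ± 3.02 and 18.8 ± 5.10 CPM for SM/J. Within LG/J 0 of the 11 genes of its list were called for sex, against 0.0496% of all genes. Within SM/J 1 was called higher and 2 lower in males, against 5.76% of all genes in either direction. Parp2, a sensor of DNA strand breaks, was higher in males (0.16 ± 0.05, adjusted p = 0.0438), and so was Shld1, a shieldin subunit (0.35 ± 0.10, adjusted p = 0.0452). None of the 4 was called with close pairs summed (adjusted p from 0.128 to 0.205), and Parp2 was not called once the 6 libraries of mixed sex transcripts were left out (adjusted p = 0.0783).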
